A study of Mus musculus with 8 samples.

Results

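The genes described here are 40 members of the TGF-beta, activin and BMP signaling families, chosen by name: 12 ligands, 5 genes for latent TGF-beta binding proteins and the protease Bmp1, 10 receptors and co-receptors, 7 Smads and 6 secreted antagonists. They were found by an exact match of the gene symbol among 33249 genes. Of the 40, 36 had a mean FPKM (fragments scaled to transcript length and library depth) of at least 0.5 over the libraries and entered the test. Bmp7, Mstn, Acvr2b and Nog did not.

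The values come from poly(A) RNA sequencing of mouse myocardium in 8 libraries, 2 in each of 4 groups. All mice carried floxed Piezo1 alleles. The groups labelled CKO (Piezo1Cko) also carried Myh6-MerCreMer, a Cre recombinase driven in cardiomyocytes and activated by tamoxifen at 4 weeks of age, and those labelled fl/fl (Piezo1fl/fl) were littermates without the transgene. Myocardial infarction (MI) was made at 8 weeks of age by tying off the left anterior descending artery for good, and sham mice had the operation with no ligation. The MI hearts were taken at day 42, and the sources used here do not state the time for sham hearts, whether a library holds several mice or whether the fl/fl mice were given tamoxifen.

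In this signaling system a dimeric ligand joins type II and type I serine/threonine kinase receptors, and the type I receptor phosphorylates receptor Smads, which enter the nucleus with Smad4. TGF-betas and activins act mainly through Smad2 and Smad3, and BMPs mainly through Smad1, Smad5 and Smad9, while Smad6 and Smad7 inhibit. In the heart, TGF-beta is known for its part in scar formation by fibroblasts, and latent TGF-beta binding proteins hold the inactive ligand in the extracellular matrix.

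The sequence before the start of transcription is shown for the 4 members with the largest rise after MI that have an entry in the RefSeq promoter table (build GRCm38.p6), as the stretch in which Smad-binding letters would be looked for. Each run is the 250 bases before the start, read in the direction of transcription. Capitals mark the Smad box CAGAC on either strand (GTCTG on the other) and the GC-rich element GGCGCC.
Ltbp2 promoter, chr12:84876492-84876741, minus strand: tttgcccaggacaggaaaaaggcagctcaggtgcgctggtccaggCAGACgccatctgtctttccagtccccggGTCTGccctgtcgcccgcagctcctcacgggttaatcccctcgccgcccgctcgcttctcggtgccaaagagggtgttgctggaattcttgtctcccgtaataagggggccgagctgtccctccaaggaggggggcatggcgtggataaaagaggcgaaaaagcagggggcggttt
Gdf15 promoter, chr8:70632457-70632706, minus strand: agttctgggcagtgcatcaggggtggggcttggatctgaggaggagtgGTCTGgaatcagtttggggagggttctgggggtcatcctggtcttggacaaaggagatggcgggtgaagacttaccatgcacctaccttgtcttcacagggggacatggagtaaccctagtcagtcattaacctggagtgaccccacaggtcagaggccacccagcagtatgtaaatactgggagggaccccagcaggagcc
Tgfb2 promoter, chr1:186705990-186706239, minus strand: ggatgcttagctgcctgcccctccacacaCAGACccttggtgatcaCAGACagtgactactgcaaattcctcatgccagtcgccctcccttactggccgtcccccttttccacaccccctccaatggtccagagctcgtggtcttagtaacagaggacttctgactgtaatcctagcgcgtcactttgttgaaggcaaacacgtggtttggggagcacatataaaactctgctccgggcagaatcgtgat
Inhbb promoter, chr1:119422249-119422498, minus strand: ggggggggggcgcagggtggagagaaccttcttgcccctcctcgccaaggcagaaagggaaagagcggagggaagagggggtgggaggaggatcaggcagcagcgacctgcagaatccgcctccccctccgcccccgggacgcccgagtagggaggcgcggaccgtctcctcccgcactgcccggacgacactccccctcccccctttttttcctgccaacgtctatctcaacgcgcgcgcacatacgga
Ltbp2 and Tgfb2 hold 2 Smad boxes each, Gdf15 holds 1, and neither motif occurs in the Inhbb window. In the table, 29 of the 40 members had 36 windows, some of which overlap within a gene. Bmp1, Bmp2, Bmp7, Chrdl1, Fst, Nog, Smad2, Smad4, Smad7, Tgfb3 and Tgfbr3 had none. The Smad box was in 18 of the 36 windows (50.0%) and in 42.2% of all 32851 windows, and GGCGCC was in 7 (19.4%) and in 9.59%. The palindrome GTCTAGAC was in 0 of the 36 and in 0.167% of all. No motif contains another, and a match is a description of these letters and not a bound site.

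Each library held from 73821747 to 88117573 counts. Piezo1, the targeted gene, ranged over 72.2 to 88.3 CPM (counts scaled to the TMM-normalized library size) under sham and 53.5 to 64.8 after MI, and the CKO label differed from fl/fl by a log2 of 0.03 (standard error 0.16) after MI and 0.10 (standard error 0.16) in sham. It was therefore not lower under the CKO label. This is RNA of whole myocardium, while the deletion is aimed at cardiomyocytes, so the level in cardiomyocytes alone is not given. The paper reports the deletion from western blots of isolated adult cardiomyocytes, which are not among these libraries. Esr1, part of which is in the Cre transgene, had 5.52 to 8.36 CPM in all sham libraries and in fl/fl-MI 1, but 331 CPM in fl/fl-MI 2, 707 in CKO-MI 1 and 402 in CKO-MI 2 (names as labelled). The Esr1 level thus goes against the genotype label in both CKO-Sham libraries and in fl/fl-MI 2. Every genotype direction below rests on the labels.

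These are bulk libraries, in which fewer cells of a type and less RNA per cell cannot be told apart. All 8 cardiomyocyte markers were present, with a summed level of 31105 to 35508 CPM in sham and 20159 to 45650 after MI. Fibroblast markers summed to 1414 to 1559 CPM in sham and 2223 to 6426 after MI, with 7 of the 8 higher in every MI library than in any sham library. Endothelial markers summed to 2247 to 2873 CPM in sham and 724 to 1020 after MI, with 6 of 6 lower in every MI library. Macrophage markers summed to 402 to 439 CPM and 395 to 1004. Smooth muscle and pericyte markers summed to 1296 to 1411 CPM and 496 to 683, with 1 of 6 lower in every MI library. Erythroid markers summed to 79.7 to 551 CPM and 272 to 753, and lymphocyte markers stayed at or below 7.17 CPM. No marker of these lists was at 0 in every library. The fl/fl-MI 2-labelled library stood apart: its 5 atrial markers summed to 19857 CPM against 2547 to 4450 in the other MI libraries and 135 to 594 in sham, its fibroblast markers had the lowest sum after MI, and its cartilage markers summed to 67.9 CPM against 427 to 885. Of the atrial markers 1 of 5 was higher in every MI library than in any sham library, and of the cartilage markers 2 of 5. Between the libraries labelled CKO-MI and CKO-Sham, 1 atrial marker was higher and 4 were lower. The part of these shifts in the results below was not tested.

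MI against sham, over both genotypes, asked which members differ in the infarcted heart. Of the 36 tested members 23 rose and 2 fell at an adjusted p under 0.05 (edgeR quasi-likelihood test, Benjamini-Hochberg adjustment over 14028 genes), and 11 did not pass. The called share was 69.4%, beside 40.4% of all genes tested. By direction, 63.9% of members rose and 5.56% fell, beside 22.0% and 18.3% of all genes. The median log2 change was 0.69 over the members and 0.03 over all genes. In 18 members every MI library lay above every sham library and in 2 every one lay below, which held for 20.9% and 19.5% of all genes. Leaving out the fl/fl-MI 2-labelled library gave 28 called members (25 rose and 3 fell), of which 24 were among the 25, beside 50.9% of all genes. On the FPKM scale, where the median of all genes moved by 0.41 (log2(FPKM + 1), limma), 29 members were higher and 0 lower. Among all genes this scale put 7027 higher and 837 lower, against 3091 and 2572 on normalized counts. The mitochondrial share of counts was 43.1% to 46.4% in sham and 19.9% to 24.2% after MI.

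**Figure D1:**
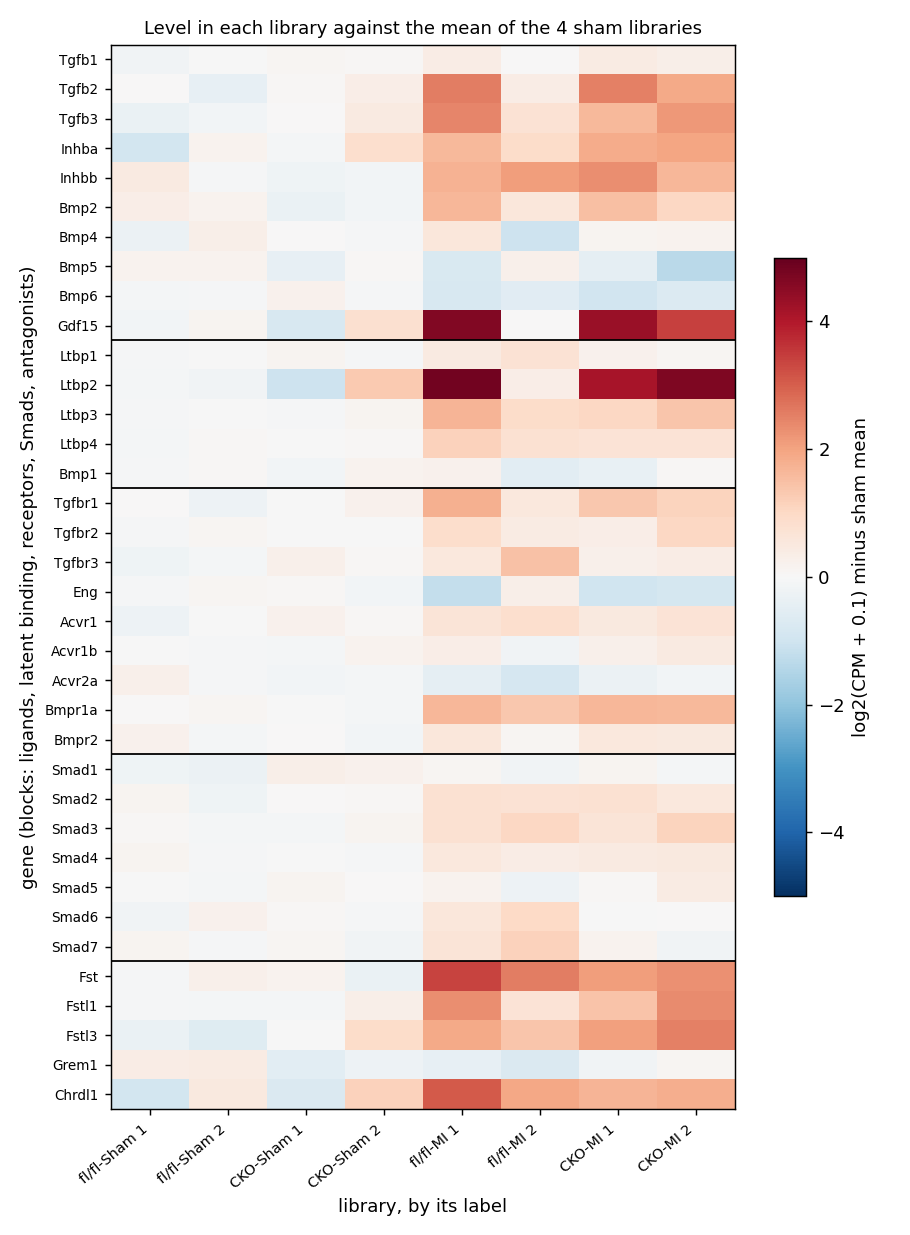
Heat map of the 36 tested members (rows, in blocks by role) in the 8 libraries (columns), as log2(CPM + 0.1) minus the mean of the 4 sham libraries, red for higher and blue for lower. Ltbp2 and Gdf15 are dark red in the libraries labelled fl/fl-MI 1, CKO-MI 1 and CKO-MI 2 and near the sham level in fl/fl-MI 2, at 16.9 and 1.45 CPM.

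Among the ligands 6 of the 10 tested rose (Tgfb2, Tgfb3, Inhba, Inhbb, Bmp2 and Gdf15), Bmp6 fell, and Tgfb1, Bmp4 and Bmp5 did not pass. Tgfb1, the ligand most studied in fibrosis, had 25.5 and 28.2 CPM in the fl/fl-Sham-labelled pair, 30.9 and 30 in CKO-Sham, 36.6 and 29.3 in fl/fl-MI and 37.8 and 34.8 in CKO-MI. The sham and MI ranges overlapped, and the log2 change was 0.28 (standard error 0.11, adjusted p = 0.0746). On the FPKM scale it passed (0.72, adjusted p = 0.00373), as it did on counts without the fl/fl-MI 2-labelled library (0.35, adjusted p = 0.0129). Tgfb2 had 9.5, 6.98, 9.86 and 11.8 CPM in the sham libraries in the same order and 56.0, 12, 54.1 and 35 in the MI libraries. The fl/fl-MI 2-labelled library was just above the highest sham library, and the other 3 were far above. Tgfb3 went from 18.1, 20.4, 22.7 and 31.1 CPM in sham to 124, 37.4, 69.1 and 102 after MI, with no overlap. The log2 changes were 2.04 (standard error 0.45, adjusted p = 0.0122) for Tgfb2 and 1.87 (standard error 0.37, adjusted p = 0.0079) for Tgfb3. Without the fl/fl-MI 2-labelled library they were 2.40 and 2.18, and without fl/fl-MI 1 they were 1.28 and 1.30. Per length, Tgfb1 made up 34.6% to 43.6% of the summed FPKM of the 3 genes in sham and 13.5% to 30.7% after MI, and Tgfb3 44.5% to 53.5% and 54.8% to 69.9%. Both sets of ranges lay apart, while those of Tgfb2 overlapped (9.39% to 13.6% and 10.9% to 25.1%).

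**Figure D2:**
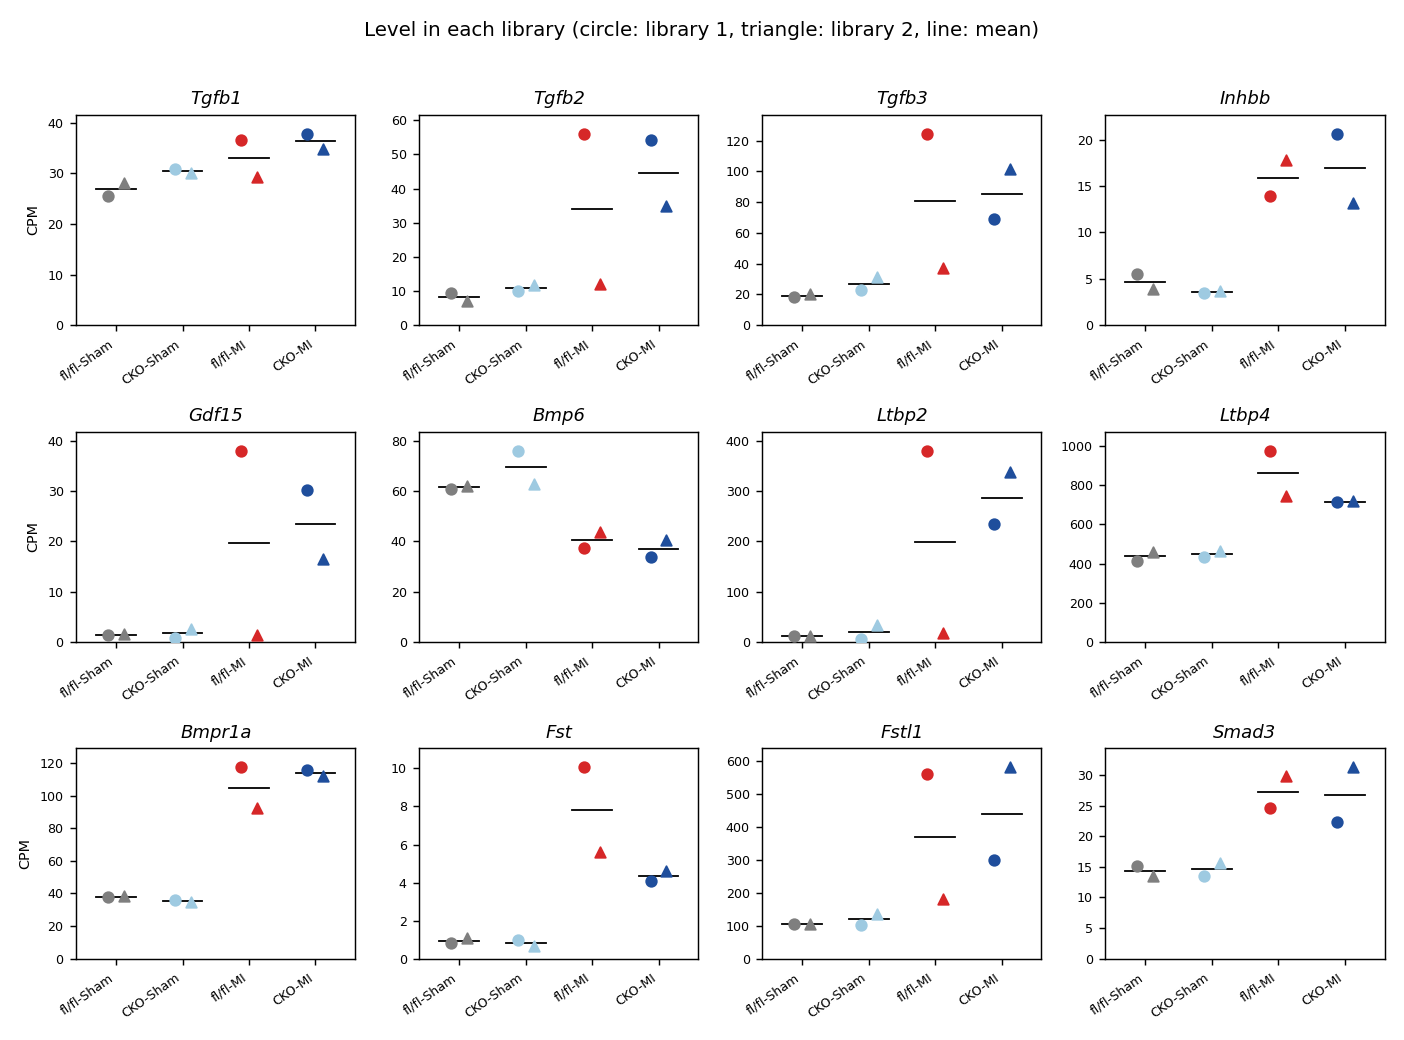
CPM of 12 members in each library by group label (circle for library 1, triangle for library 2, line for the mean of the 2), each on an axis from 0. Inhbb, Bmpr1a and Smad3 rose in all 4 MI libraries, while the triangle of fl/fl-MI stays near the sham points for Tgfb2 (12), Gdf15 (1.45) and Ltbp2 (16.9).

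Inhba and Inhbb code for the activin beta subunits. Inhba had 1.35, 3.01, 2.45 and 4.74 CPM in sham and 8.24, 5.03, 9.77 and 10.6 after MI. Inhbb had 5.51, 3.85, 3.49 and 3.68 CPM in sham and 14.0, 17.8, 20.6 and 13.2 after MI. The groups did not overlap for either gene, and the fl/fl-MI 2-labelled library was the lowest MI library for Inhba but not for Inhbb. The log2 changes were 1.56 (standard error 0.34, adjusted p = 0.0117) and 2.0 (standard error 0.21, adjusted p = 0.00104). Gdf15, a stress-induced circulating ligand that signals through Gfral rather than Smads, had 1.30, 1.61, 0.79 and 2.57 CPM in sham and 38.0, 1.45, 30.3 and 16.5 after MI. The fl/fl-MI 2-labelled library lay within the sham range, and the other 3 lay above it. Its log2 change was 3.78 (standard error 0.95, adjusted p = 0.0185), with 4.26 (adjusted p = 0.000234) without that library and 1.89 (adjusted p = 0.00824) without fl/fl-MI 1. Mstn, the muscle growth inhibitor myostatin, had at most 1.62 CPM (the fl/fl-MI 2-labelled library) and 0 counts in those labelled fl/fl-Sham 1 and CKO-Sham 2, which allow up to 0.0510 and 0.0491 CPM, or 0.204 and 0.197 CPM if 1 read gives 4 counts.

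The BMP ligands did not move together. Bmp2 had 2.17, 1.93, 1.32 and 1.53 CPM in sham and 5.57, 2.58, 5.09 and 3.61 after MI, with no overlap (log2 1.30, standard error 0.30, adjusted p = 0.0132). Bmp6, the most abundant BMP ligand here per length (12.1 to 15.7 FPKM in sham), had 61.1, 62.0, 76.2 and 62.9 CPM in sham and 37.4, 43.6, 33.8 and 40.5 after MI. Every MI library lay below every sham library, and its log2 change was -0.75 (standard error 0.12, adjusted p = 0.00341). On the log2(FPKM + 1) scale, where the median of all genes was 0.41, it was -0.18 (adjusted p = 0.295, limma). Bmp4 and Bmp5 ranged from 4.73 to 14.7 and from 0.938 to 3.01 CPM over the 8 libraries, and Bmp7 reached 0.54 CPM. Leaving out the library labelled fl/fl-Sham 2 or CKO-Sham 1 gave adjusted p = 0.061 or 0.0597 for Tgfb2 and 0.0617 or 0.0608 for Bmp2. For Gdf15 it was 0.0518 to 0.0825 without each of fl/fl-Sham 1, fl/fl-Sham 2, CKO-Sham 1, CKO-Sham 2 and CKO-MI 1.

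All 4 latent TGF-beta binding protein genes rose after MI, and Bmp1, the procollagen C-proteinase, did not pass (log2 -0.12, adjusted p = 0.629). Ltbp2, a matrix protein of microfibrils that does not bind latent TGF-beta itself, had 12.6, 11.8, 6.42 and 33.1 CPM in sham and 380, 16.9, 234 and 338 after MI. The fl/fl-MI 2-labelled library lay inside the sham range, and the other 3 were above it. The log2 change was 3.94 (standard error 0.96, adjusted p = 0.017), with 4.41 (adjusted p = 0.000502) without that library and 2.15 (adjusted p = 0.00896) without fl/fl-MI 1. It was 3.57 to 3.96 with an adjusted p of 0.069 to 0.0812 without each of fl/fl-Sham 1, fl/fl-Sham 2 and CKO-Sham 1. Ltbp3 had 52.4, 53.9, 51.9 and 59.7 CPM in sham and 178, 104, 112 and 141 after MI (log2 1.30, standard error 0.19, adjusted p = 0.0026). Ltbp4, which binds mainly latent TGF-beta 1, had 414, 462, 434 and 466 CPM in sham and 977, 747, 716 and 718 after MI (log2 0.82, standard error 0.13, adjusted p = 0.00377). The groups did not overlap for Ltbp3 or Ltbp4, and both passed with each library left out.

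Ltbp1 changed least: 32.6, 33.2, 37.0 and 32.9 CPM in sham and 46.5, 56.5, 39.0 and 35.9 after MI, with overlap (log2 0.37, standard error 0.10, adjusted p = 0.0259). Without each of the 4 sham libraries and each library labelled CKO-MI its adjusted p was 0.0587 to 0.101. Per length, Ltbp4 held 84.0% to 87.2% of the summed FPKM of the 4 genes in sham and 86.0% in the fl/fl-MI 2-labelled library, against 64.8% to 71.3% in the other MI libraries. Ltbp2 held 1.01% to 4.72% in sham and 1.54% in that library, against 18.4% to 24.1% in the others.

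Of the 9 receptors tested, Tgfbr1, Tgfbr2, Tgfbr3, Acvr1 and Bmpr1a rose, Acvr2a fell, and Eng, Acvr1b and Bmpr2 did not pass. Bmpr1a, a type I receptor for BMPs, had 37.5, 38.7, 35.9 and 34.5 CPM in sham and 117, 92.4, 116 and 112 after MI. The groups lay far apart and the spread within each was small (mean 36.7 ± 1.82 CPM in sham and 109 ± 11.5 after MI, SD, n = 4), with a log2 change of 1.58 (standard error 0.11, adjusted p = 0.000443). This was the smallest p of all members. Tgfbr1, the type I receptor for TGF-beta, had 28.1, 23.7, 27.8 and 32.8 CPM in sham and 96.7, 39.7, 71.8 and 60.2 after MI (log2 1.26, standard error 0.27, adjusted p = 0.0103). Tgfbr2, its type II partner, had 70.3, 79.8, 73.0 and 72.7 CPM in sham and 135, 98.1, 92.4 and 153 after MI (log2 0.69, standard error 0.19, adjusted p = 0.0237). Acvr1, a type I receptor for BMPs and activins, had 12.9, 15.2, 17.6 and 16.0 CPM in sham and 24.3, 27.3, 21.6 and 24.8 after MI (log2 0.67, standard error 0.11, adjusted p = 0.0047). The groups did not overlap for these 3 genes. Per length, Bmpr1a made up 29.3% to 35.8% of the summed FPKM of Tgfbr1, Acvr1, Acvr1b and Bmpr1a in sham and 42.2% to 48.4% after MI, and Acvr1b 23.0% to 25.9% and 12.5% to 15.3%.

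**Figure D3:**
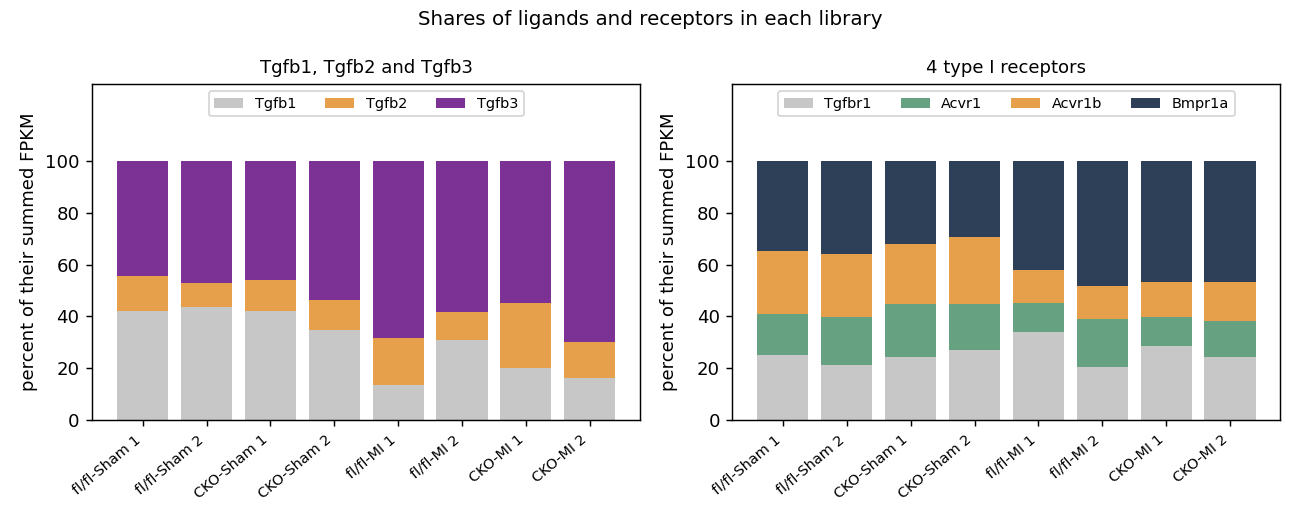
Stacked bars of the share of summed FPKM in each library, for Tgfb1, Tgfb2 and Tgfb3 (left) and for 4 type I receptors (right). Tgfb1 falls from 34.6% to 43.6% in sham to 13.5% to 30.7% in the MI libraries, and Bmpr1a takes 42.2% to 48.4% in them.

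Tgfbr3 (betaglycan) had 26.3, 28.6, 36.3 and 32.2 CPM in sham and 44.2, 84.1, 36.1 and 39.7 after MI, with overlap (log2 0.68, standard error 0.20, adjusted p = 0.0304). Eng (endoglin), a co-receptor of endothelial cells, had 317 to 374 CPM in sham, 421 in the fl/fl-MI 2-labelled library and 150 to 190 in the other MI libraries. Its log2 change was -0.61 (adjusted p = 0.14), and -1.07 (adjusted p = 0.000354) without that library, in which the endothelial markers summed to 950 CPM. Acvr2a, a type II receptor for activins, had 34.6, 28.0, 26.3 and 27.2 CPM in sham and 21, 16.0, 23.7 and 25.9 after MI, without overlap. Its log2 change was -0.43 (standard error 0.13, adjusted p = 0.0309) on normalized counts but 0.11 and 0.13 on the log2(FPKM + 1) and log2(FPKM + 0.1) scales, where the median of all genes was 0.41 and 0.56. Bmpr2 had 78.6 to 100 CPM in sham and 92.0 to 127 after MI (log2 0.41, adjusted p = 0.0505), Acvr1b 16.9 to 25.6 over all libraries and Acvr2b, untested, at most 2.33. Several calls were lost when a library was left out. The adjusted p of Tgfbr1 was 0.0523 without fl/fl-Sham 2 and 0.0519 without CKO-Sham 1. For Tgfbr2 it was 0.0561 to 0.0905 without each sham library or CKO-MI 2, and for Tgfbr3 0.0733 to 0.103 without each sham library or each CKO-MI library. For Acvr2a it was 0.0512 to 0.116 without each of the same 6.

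The Smads of the TGF-beta and activin branch rose and those of the BMP branch did not pass. Smad2 had 19.4, 15.5, 18.1 and 18.3 CPM in sham and 30.0, 29.3, 30.0 and 25.4 after MI. Smad3 had 15.2, 13.4, 13.5 and 15.7 CPM in sham and 24.6, 29.8, 22.3 and 31.2 after MI. Neither gene overlapped between groups, and the fl/fl-MI 2-labelled library was within the range of the other MI libraries for both. The log2 changes were 0.69 (standard error 0.11, adjusted p = 0.00432) and 0.90 (standard error 0.15, adjusted p = 0.00413). Smad4, the shared partner, had 30.1 to 35.2 CPM in sham and 40.8 to 45.6 after MI (log2 0.46, adjusted p = 0.00939, and 0.051 without fl/fl-Sham 2). Smad1 had 18.8, 18.0, 26.5 and 25.1 CPM in sham and 23.0, 19.2, 23.7 and 20.1 after MI (log2 -0.02, adjusted p = 0.912), and Smad5 ranged from 44.1 to 69.8 CPM (log2 0.10, adjusted p = 0.58). Per length, Smad2 and Smad3 together made up 27.2% to 33.1% of the FPKM of Smad1, Smad2, Smad3 and Smad5 in sham and 39.96% to 49.2% after MI, ranges that lay apart.

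The inhibitory Smads were high in the libraries labelled fl/fl-MI. Smad6, which acts mainly on BMP signaling, had 16.2, 21.1, 19.2 and 17.4 CPM in sham and 27.0, 36.5, 18.2 and 18.5 after MI. Smad7, which blocks TGF-beta receptors, had 24.7, 21.5, 24.2 and 19.9 CPM in sham and 35.5, 49.5, 25.2 and 19.8 after MI. For both genes the libraries labelled CKO-MI were at the sham level and those labelled fl/fl-MI above it. Over both genotypes the log2 change was 0.39 (standard error 0.14, adjusted p = 0.0665) for Smad6 and 0.45 (standard error 0.15, adjusted p = 0.0492) for Smad7. The call for Smad7 was lost with each library but fl/fl-MI 1 left out (adjusted p = 0.0602 to 0.172). Over 20 alternatives, the 2-fold rule not among them, it was kept in 7, and the adjusted p reached 0.538.

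Among the secreted antagonists Fst, Fstl1, Fstl3 and Chrdl1 rose and Grem1 did not pass (log2 -0.30, adjusted p = 0.275). Fst (follistatin), which binds activins, had 0.819, 1.06, 0.981 and 0.658 CPM in sham and 10.1, 5.59, 4.06 and 4.61 after MI. Fstl3, which also binds activins and myostatin, had 4.23, 3.50, 5.33 and 10.3 CPM in sham and 20.2, 14.0, 22.4 and 30.8 after MI. Neither gene overlapped between groups. Their log2 changes were 2.73 (standard error 0.28, adjusted p = 0.001) and 1.96 (standard error 0.26, adjusted p = 0.00191). Fstl1, the most abundant of the antagonists per length (16.7 to 21.8 FPKM in sham and 39.8 to 150 after MI), had 107, 105, 104 and 137 CPM in sham and 560, 180, 299 and 581 after MI (log2 1.84, standard error 0.38, adjusted p = 0.00945, and 0.0506 without CKO-Sham 1). Chrdl1, a BMP antagonist of the chordin family, had 1.19, 3.32, 1.36 and 5.25 CPM in sham and 20.1, 9.28, 7.86 and 8.46 after MI (log2 2.0, standard error 0.52, adjusted p = 0.0212). Its adjusted p was 0.0533 to 0.072 without each of fl/fl-Sham 1, CKO-Sham 1, CKO-MI 1 and CKO-MI 2. Nog (noggin) had at most 0.38 CPM. The FPKM of Inhba and Inhbb was 0.37 to 0.83 times that of Fst and Fstl3 in sham and 0.35 to 0.72 times after MI, so the ratio overlapped between groups.

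Within genotype labels the same comparison was made with 2 libraries against 2. Between the libraries labelled fl/fl-MI and fl/fl-Sham 16 members rose and 2 fell, 50.0% beside 18.5% of all genes. Between those labelled CKO-MI and CKO-Sham 11 rose and 1 fell, 33.3% beside 24.7%. Bmpr1a (log2 1.46 and 1.69), Fst (3.05 and 2.40), Fstl3 (2.14 and 1.77), Inhbb (1.77 and 2.24), Ltbp3 (1.41 and 1.18), Ltbp4 (0.98 and 0.67), Smad2 (0.77 and 0.61) and Smad3 (0.93 and 0.88) rose under both labels, and Bmp6 (-0.60 and -0.90) fell under both. Tgfb2, Inhba, Gdf15 and Ltbp2 passed under neither label alone. These counts depend on the shared estimate of spread: with only the 4 libraries compared in the fit, edgeR called 0 members under the fl/fl label (beside 1.42% of all genes, and 3861 genes at an unadjusted p under 0.05) and 20 under the CKO label (beside 34.5%).

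**Figure D4:**
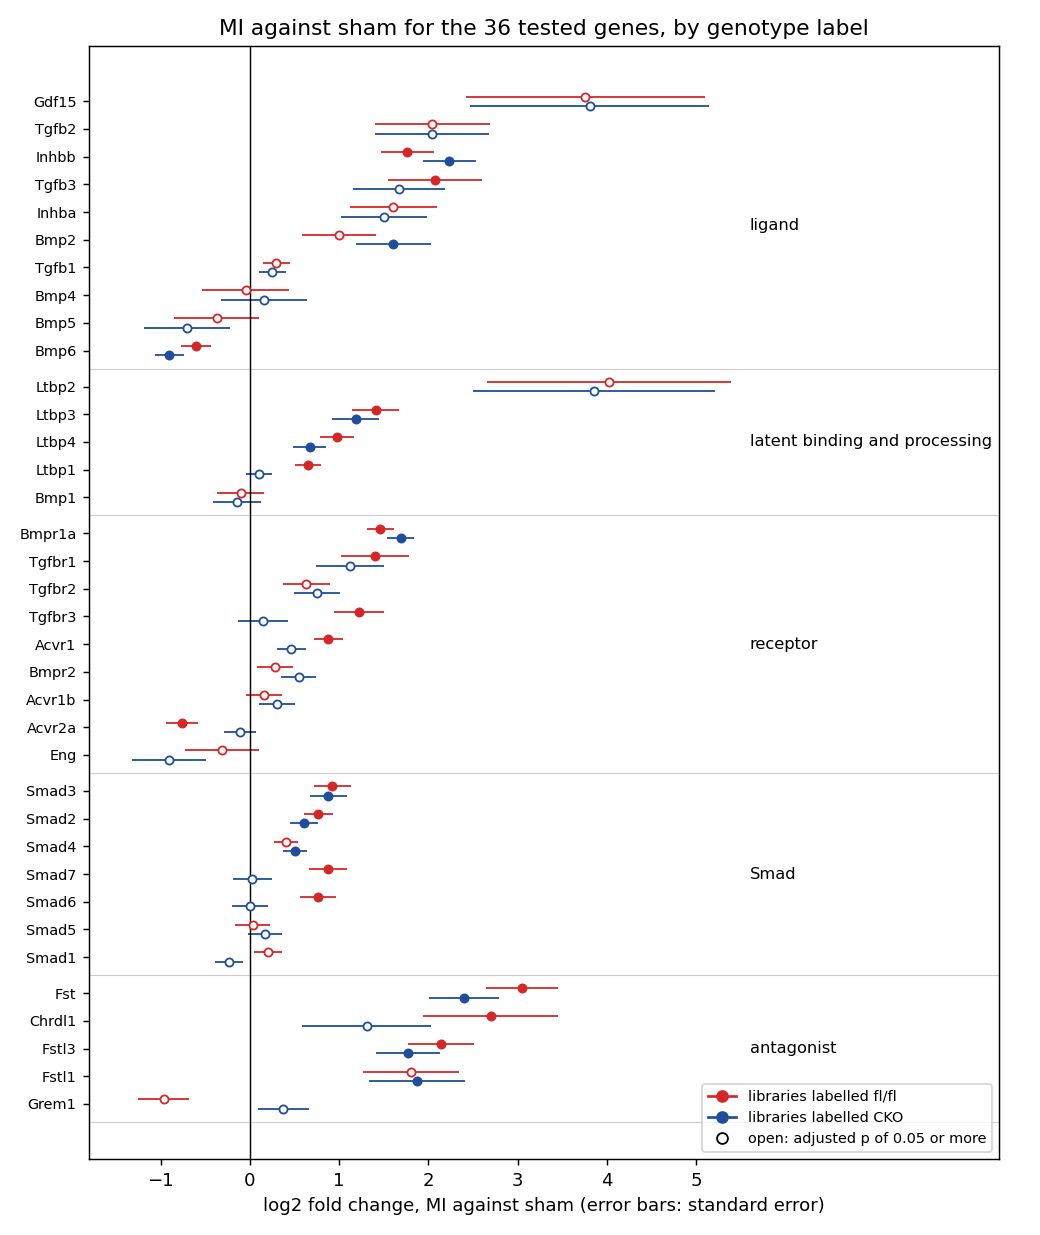
Log2 fold change of MI against sham (x axis, error bars for the standard error) for the 36 tested members by role, in red for the libraries labelled fl/fl and in blue for those labelled CKO, with filled points for an adjusted p under 0.05. The 2 estimates are farthest apart for Chrdl1 (2.7 and 1.31), Grem1 (-0.97 and 0.38), Tgfbr3 (1.22 and 0.15), Smad7 (0.88 and 0.03) and Smad6 (0.77 and 0.00).

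CKO-MI against fl/fl-MI asked whether the deletion label changed these genes after MI. edgeR called 0 members at an adjusted p under 0.05, beside 0.0% of all genes, and 5 of 36 (13.9%) had an unadjusted p under 0.05, beside 8.31% of all genes. Smad7 was lower in the libraries labelled CKO-MI (25.2 and 19.8 against 35.5 and 49.5 CPM) by a log2 of -0.92 (standard error 0.22, unadjusted p = 0.00368, adjusted p = 0.489 in edgeR). DESeq2 called this gene alone among the members (log2 -0.90, adjusted p = 0.0474), beside 1.48% of all genes. Smad6 differed by -0.79 (standard error 0.20, unadjusted p = 0.00551, adjusted p = 0.502 in edgeR), with no overlap between 18.2 and 18.5 CPM and 27.0 and 36.5 CPM. Ltbp1 differed by -0.46 (adjusted p = 0.549 in edgeR), Tgfbr3 by -0.76 (adjusted p = 0.556) and Acvr2a by 0.42 (adjusted p = 0.598). In all 5 genes the fl/fl-MI 2-labelled library, which has the Esr1 level of the CKO-MI libraries, was farther from them than fl/fl-MI 1 was. Without it the log2 differences were -0.66 for Smad7, -0.55 for Smad6, -0.31 for Ltbp1, -0.22 for Tgfbr3 and 0.24 for Acvr2a, with adjusted p of 0.268 to 0.617 and 0 members called beside 0.194% of all genes. Without fl/fl-MI 1 instead, so that fl/fl-MI 2 stood alone, 12 members were called (7 higher and 5 lower) beside 12.2% of all genes. They were the 5 above and Tgfb2, Tgfb3, Gdf15, Bmp4, Ltbp2, Tgfbr1 and Eng.

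**Figure D5:**
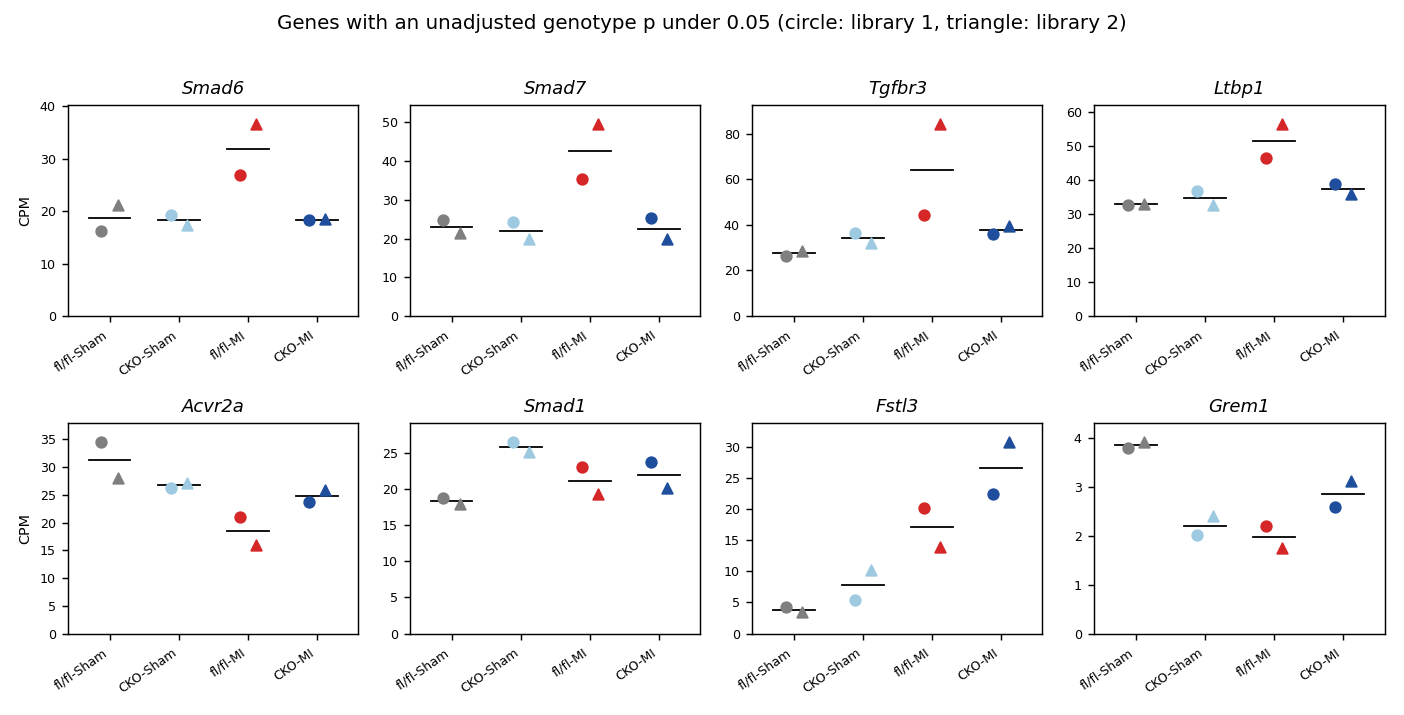
CPM in each library (circle for library 1, triangle for library 2, line for the mean) by group label for the 8 members with an unadjusted p under 0.05 in a genotype comparison or the interaction, on axes from 0. For Smad6, Smad7, Tgfbr3 and Ltbp1 the highest point of all is the triangle of fl/fl-MI, at 36.5, 49.5, 84.1 and 56.5 CPM.

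In the sham libraries 0 members were called by edgeR or DESeq2, beside 0.00713% of all genes in edgeR and 0.242% in DESeq2. An unadjusted p under 0.05 in edgeR was found for 3 of 36 (8.33%), beside 3.89% of all genes. Smad1 was 0.49 higher on the log2 scale under the CKO label (26.5 and 25.1 against 18.8 and 18.0 CPM, unadjusted p = 0.0158) and Fstl3 1.01 higher (5.33 and 10.3 against 4.23 and 3.50 CPM, unadjusted p = 0.0255). Grem1, a BMP antagonist, was lower by -0.81 (2.02 and 2.40 against 3.80 and 3.92 CPM, unadjusted p = 0.0255). The adjusted p was 1 for each of these in edgeR. In the interaction of genotype and MI 0 members were called by edgeR or DESeq2, beside 0.0% of all genes in edgeR and 0.934% in DESeq2. An unadjusted p under 0.05 in edgeR was found for 6 of 36 (16.7%), beside 8.49% of all genes. They were Grem1 (1.34), Acvr2a (0.65), Ltbp1 (-0.55), Smad6 (-0.77), Smad7 (-0.85) and Tgfbr3 (-1.08), with an adjusted p of 0.574 for each in edgeR. After MI the CKO label differed from fl/fl by 0.14 (standard error 0.15) for Tgfb1, 0.39 (0.62) for Tgfb2 and 0.08 (0.50) for Tgfb3.

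Other genes of these pathways, 98 from a list that holds none of the 40, were counted in the same test: of 67 tested, 33 rose and 2 fell (52.2% called beside 40.4% of all genes, with a median log2 change of 0.77). The shares below stand beside 22.0% of all genes that rose and 18.3% that fell. Genes listed as TGF-beta and activin targets rose in 9 of 10 genes, all but Tnc, and 3 of them (Postn, Col1a1 and Col3a1) are also in the fibroblast list above. Of 6 BMP targets 1 passed upward (Id2, log2 0.86) and 1 downward (Id1). In all, 5 of the 6 had a log2 change below 0, and their median was -0.50. Genes for latent TGF-beta activation rose in 6 of 12, Smad regulators in 7 of 14, other antagonists in 6 of 12, other receptors in 3 of 7, and of 6 other ligands 1 rose and 1 fell. Among the smallest p-values upward were those of Ccn2, a matricellular target of TGF-beta (43.4 to 97.8 CPM in sham and 348 to 1076 after MI, log2 3.56), Vasn, a TGF-beta trap (at most 10.6 in sham and 21.2 to 33.3 after MI, log2 1.46), Twsg1, a BMP modulator (1.21), and Skil, a Smad corepressor (1.23). The adjusted p was at most 0.000731 for each in edgeR. Downward they belonged to Id1, a BMP target (93.6 to 137 CPM in sham and 26.8 to 78.8 after MI, log2 -1.03, adjusted p = 0.0177 in edgeR), and Inha, the inhibin alpha subunit (log2 -1.25, adjusted p = 0.0222). Rgmb (-0.40), Msx1 (-0.82) and Tgif2 (-0.78) followed and did not pass. Bmp10, an atrial BMP ligand, reached 3834 CPM in fl/fl-MI 2 as labelled and 10.3 to 18.8 in the others.

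Among the MI libraries the one labelled fl/fl-MI 2 was the lowest of 4 for 21 of the 36 tested members and the highest for 8, beside 34.5% and 33.5% of all genes tested. Against the mean of the other 3 MI libraries it was lower in Ltbp2 (log2 -4.22), Gdf15 (-4.19), Tgfb2 (-2.0), Fstl1 (-1.41) and Tgfb3 (-1.40), and higher in Eng (1.30), Tgfbr3 (1.07), Smad7 (0.88) and Smad6 (0.78). For Smad2 (0.04), Inhbb (0.16) and Ltbp4 (-0.11) it was near them. Of the 23 members that rose, 21 were above every sham library in this library, and 20 were in all of the other 3. The 23 were called from these same libraries, so these counts are a description and not a separate test. The share among all genes that rose was not counted.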

How the data were processed

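Myocardial poly(A) RNA (TRIzol, oligo(dT), stranded libraries, paired reads of 150 bases) was sequenced by the authors, who used cutadapt 1.9 and FastQC. The aligner, counter and annotation are not given in the sources used here. The authors deposited whole-number counts per gene and FPKM values per gene and transcript. Counts piled up at multiples of 4. Gene coordinates equal GENCODE M21 (GRCm38) for 36 of 40 members. The members and lists were chosen with earlier results of these data known.

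The 14028 genes averaging 0.5 FPKM or more were fitted with edgeR 4.0.16 (R 4.3.3): TMM normalization, 1 mean per group, quasi-likelihood test, Benjamini-Hochberg adjustment over all genes, calls at an adjusted p under 0.05. With nothing to say that libraries are separate animals, p-values measure the spread between libraries. Libraries were compared and none was identical to another. Floors (3 counts) cover counting error only. Values in every library are given for members called at 1.5-fold or more (over both genotypes or in one), members with a genotype p under 0.05, and 9 set genes. Of other pathway genes the 5 with the smallest p in each direction are named, except 1 that is not reported here. Alternatives were RLE, no mitochondrial genes, counts divided by 4, no filter, a filter at 5 FPKM, DESeq2 1.42.0, limma 3.58.1 on log2(FPKM + 1) and log2(FPKM + 0.1), only the libraries compared, a replicate block, a 2-fold rule, and each library left out, the lone library of that group being taken to vary like the other groups. A crossed block and fits without genotype labels were added after seeing the data. The fits were run on simulated counts with 1 spread for all genes, smaller than the common spread of these data. That run checks the code and does not measure error rates here. Python 3.11.15, pandas 2.3.3 and matplotlib 3.10.9 served for tables and drawings.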

Additional observations from a re-analysis of the deposited data

Results flagged for a closer look

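The libraries of Smad1 and Grem1 moved in opposite directions under the 2 genotype labels. For Smad1 both libraries labelled fl/fl-MI were above both labelled fl/fl-Sham, and both labelled CKO-MI were below both labelled CKO-Sham, with an interaction of -0.44 on the log2 scale (standard error 0.22, adjusted p = 0.618 in edgeR). For Grem1 the order was the opposite, with an interaction of 1.34 (standard error 0.40, adjusted p = 0.574 in edgeR). Neither passed the test of the difference, and Grem1 had 1.75 to 3.92 CPM over all libraries.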

How the results depend on the processing

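Counts of called members stand beside the share of all genes called in the same fit. The 25 members called in MI against sham over both genotypes (40.4% of all genes) became 13 at a mean FPKM of at least 5 (52.6%), where 20 members were tested, 14 with the 2-fold rule (14.8%), and 13 to 28 with 1 library left out (22.6% to 50.9%), the low counts being 13 without CKO-Sham 1 (23.0%) and 14 without fl/fl-Sham 2 (22.6%). The 2-fold rule was not part of the counts per member that follow. Of the 25, 11 kept direction and call in every one of the other alternatives in which they were tested. They were Tgfb3, Inhba, Inhbb, Ltbp3, Ltbp4, Acvr1, Bmpr1a, Smad2, Smad3, Fst and Fstl3. How many of all called genes did so was not counted. Ltbp4, Acvr1, Smad2 and Smad3 changed by less than 2-fold and were not called by the 2-fold rule. Acvr2a kept direction and call in 8 of 19 alternatives. It reversed to 0.11 and 0.13 with limma on log2(FPKM + 1) and log2(FPKM + 0.1), and the cause was not tested. Without the genotype labels 22 members were called (41.7%), and 25 when the 3 libraries with an Esr1 level against the label were also left out (32.3%). The 18 members called under the fl/fl label (18.5%) became 10 at a mean FPKM of at least 5 (29.0%), 9 with the 2-fold rule (10.5%), 0 with only the libraries compared (1.42%), 11 with the replicate block (12%), and 0 to 26 with 1 library left out (0.808% to 30.1%; 0 without either fl/fl-Sham library, 8 without either CKO-Sham library, 10 without either CKO-MI library). The 12 under the CKO label (24.7%) became 4 at a mean FPKM of at least 5 (38.1%), 7 with the 2-fold rule (12.9%), 20 with DESeq2 (33.7%), 23 and 24 with limma on log2(FPKM + 1) and log2(FPKM + 0.1) (36.8% and 38.4%), 20 with only the libraries compared (34.5%), and 0 to 22 with 1 library left out (0.17% to 41.6%; 0 without CKO-Sham 1, 4 to 6 without another sham or CKO-MI library, 22 without either fl/fl-MI library). After MI the genotype labels gave 1 member with DESeq2 (1.48%), where the interaction gave 0 (0.934%). Both comparisons gave more members with fl/fl-MI 1 left out, which left fl/fl-MI 2 alone in its group, and both then also called more of all genes. No alternative called a member between the sham genotypes, where few of all genes were called either (1.18% with only the libraries compared and 0.242% with DESeq2).

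The libraries share only a number: deviations of same-numbered libraries correlated at -0.14 to 0.06. With the replicate block 24 members were called over both genotypes (36.2%), 10 under the CKO label (19.1%) and 0 between genotypes after MI. A crossed block over the 4 MI libraries, chosen after seeing the data, called 0 genes and 0 members. The uncrossed block on those libraries also called 0 genes. Such fits leave too few libraries to measure the spread well, so no conclusion is drawn from them. The number of libraries, 2 per group, limits every genotype comparison, and depth limits Mstn, which had 0 counts in 2 libraries.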

Other observations

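Transcript FPKM values of 4 members are the authors' estimates and are given as a description. For Ltbp1 the 34-exon transcript took 9.93%, 68.4%, 71.6% and 24.6% of the gene's FPKM in the sham libraries and 59.6%, 79.5%, 90.0% and 64.6% after MI. Bmp1 was assigned mostly to a 20-exon transcript annotated for nonsense-mediated decay (54.3% to 79.6% over all libraries), and 19.2% to 41.8% to a protein-coding transcript with the same number of exons. The 7-exon transcript of Tgfb2 took 83.6% to 97.3% in sham and 73.1% to 88.8% after MI, and the 8-exon transcript 0% to 5.69% and 5.46% to 24.0%. The main Smad2 transcript took 76.7% to 100% in sham, 56.3% in the fl/fl-MI 2-labelled library and 91.2% to 99.6% in the other MI libraries.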
